A study of Mus musculus with 45 samples.

Results

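Butyrophilin-like genes and genes of the lymphocytes that sit among epithelial cells were followed in the colonic epithelium of control, obese and formerly obese mice. The 10 genes were taken by symbol from the 24918 entries of the RNA-seq count table. They comprised 4 butyrophilin-like genes (Btnl1, Btnl2, Btnl4 and Btnl6) and 6 lymphocyte genes (Cd3e, Cd3g, Cd8a, Gzma, Gzmb and Itgae). All 10 were found in the table and passed the filter on low counts. They were listed with the difference between formerly obese and control mice already known, so values of that comparison are given as a description, without a p-value. The same formerly obese libraries entered the comparison with obese mice, so its p-values are not independent of how the genes were listed.

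The mice were male C57BL/6J animals that entered the diets at 6 weeks of age, with lard as the source of fat, and the epithelium was released from the colon with EDTA. Control mice (LF) ate a 10% fat diet for 20 weeks, and obese mice (HF) ate a 60% fat diet for 20 weeks. Formerly obese mice (HFLF) ate the 60% fat diet for 15 weeks and then the 10% fat diet for 5 weeks. Each group had 5 mice with 1 RNA-seq library each, named here by diet and replicate number, so that HF5 is replicate 5 of the obese mice. Libraries held 15230391 to 16718408 counts in control mice, 15591904 to 16749096 in obese mice and 16114562 to 22762095 in formerly obese mice.

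Butyrophilin-like proteins belong to the immunoglobulin superfamily and resemble the B7 costimulatory molecules. In the mouse intestine, enterocytes display Btnl1 and Btnl6 as a pair on the cell surface, and this pair maintains intraepithelial lymphocytes that carry particular gamma-delta T cell receptors. Intraepithelial lymphocytes are T cells lodged between epithelial cells. They bind E-cadherin through the integrin that Itgae encodes, often carry CD8 as an alpha-alpha homodimer and store granzymes for killing damaged or infected cells.

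The 4 Btnl genes lie within 162.5 kb of chromosome 17 (chr17:34354822-34517352, GRCm38, RefSeq annotation), in the region of the major histocompatibility complex. Btnl2 (chr17:34354822-34369492) and Btnl1 (chr17:34377132-34386028) are on the plus strand, whereas Btnl4 (chr17:34469042-34475937) and Btnl6 (chr17:34507935-34517352) are on the minus strand. Among the lymphocyte genes, Cd3g (chr9:44969572-44980431) and Cd3e (chr9:44998743-45009590) are neighbors, and Cd8a (chr6:71373427-71379171), Gzma (chr13:113093827-113100981), Gzmb (chr14:56258858-56262260) and Itgae (chr11:73090595-73147449) lie apart.

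The 250 bases before the start of each Btnl gene are shown because the 4 genes share a locus and were searched for motifs of intestinal regulators (RefSeq, GRCm38.p6, 5′ to 3′ on the strand of the gene). In Btnl1 and Btnl2 the capitals mark matches to a motif of HNF4, the nuclear receptors of enterocytes. In Btnl4 and Btnl6 they mark bases at which the aligned pair differed.
Btnl1, chr17:34376882-34377131, plus strand: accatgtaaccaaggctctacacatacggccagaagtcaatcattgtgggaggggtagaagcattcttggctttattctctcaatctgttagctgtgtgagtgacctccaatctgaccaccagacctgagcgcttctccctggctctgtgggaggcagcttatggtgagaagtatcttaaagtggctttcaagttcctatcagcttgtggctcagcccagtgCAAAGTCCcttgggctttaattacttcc
Btnl2, chr17:34354572-34354821, plus strand: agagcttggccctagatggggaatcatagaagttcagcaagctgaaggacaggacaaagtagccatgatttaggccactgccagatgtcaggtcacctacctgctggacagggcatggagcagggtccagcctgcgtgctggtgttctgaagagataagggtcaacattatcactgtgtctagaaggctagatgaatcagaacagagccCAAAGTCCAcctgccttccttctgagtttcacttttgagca
Btnl4, chr17:34475938-34476187, minus strand: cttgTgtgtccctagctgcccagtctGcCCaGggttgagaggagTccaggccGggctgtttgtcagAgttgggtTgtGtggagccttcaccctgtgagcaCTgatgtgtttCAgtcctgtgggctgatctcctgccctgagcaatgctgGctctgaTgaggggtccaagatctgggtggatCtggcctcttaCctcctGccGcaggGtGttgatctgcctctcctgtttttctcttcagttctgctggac
Btnl6, chr17:34517353-34517602, minus strand: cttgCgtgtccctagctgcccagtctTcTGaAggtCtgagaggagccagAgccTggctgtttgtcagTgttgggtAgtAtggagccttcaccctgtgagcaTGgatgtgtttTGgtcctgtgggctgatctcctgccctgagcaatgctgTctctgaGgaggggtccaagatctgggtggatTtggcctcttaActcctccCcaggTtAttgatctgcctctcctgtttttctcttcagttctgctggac

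The sequences before Btnl4 and Btnl6 were near copies, with 228 identical bases in 252 alignment columns (90.5%), whereas the other 5 pairs were 51.6% to 52.9% identical. The HNF4 motif CAAAGTCCA, searched on both strands, was found before Btnl2, from 41 to 33 bases upstream of the start, and in 126 of 32851 RefSeq promoter windows of the same length (0.384%). Its first 8 letters, CAAAGTCC, also matched before Btnl1, from 28 to 21 bases upstream, and occurred in 1.2% of the windows. This shorter form overlaps the longer motif and was chosen after the Btnl sequences had been seen. The CDX motif TTTATNG (9.81% of the windows) and the TATA motif TATAAA (12.4%) were in none of the 4 Btnl windows.

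The epithelial label of the samples matched their markers. Summed over 8 epithelial genes, among them Epcam, 4 keratins and Vil1, the level was 14140 to 16970 CPM (counts per 1000000 of the library total after TMM scaling). Pan-leukocyte genes (Ptprc, Cd52, Laptm5, Coro1a and Cd53) together reached 18.6 to 55.1 CPM, and macrophage and dendritic cell genes 49.9 to 68.1 CPM. Most of the latter sum was Cd14, with group means of 39.4 to 44.7 CPM, followed by Itgam at 6.89 to 8.65 CPM. Csf1r and Cd68 had group means of 0.71 to 1.18 CPM, so the sum is no measure of macrophages as a whole. Fibroblast genes reached 2.34 to 30.65 CPM, endothelial genes 3.08 to 9.02 CPM, and 6 smooth muscle genes 2.7 CPM or less. In bulk epithelium, fewer lymphocytes and less RNA per lymphocyte cannot be told apart.

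Per kilobase of exon, the Btnl genes stood at 3 levels in control mice. Btnl6 and Btnl1 were highest, at 55.8 ± 5.55 and 55.7 ± 6.25 CPM per kb (SD, n = 5), and did not differ beyond their spread. Btnl4 followed at 37.6 ± 1.2 CPM per kb. Btnl2 was far lower at 2.28 ± 0.579 CPM per kb, within the spread of Cd3g at 2.43 ± 1.03 CPM per kb. The other lymphocyte genes lay at 0.707 to 1.95 CPM per kb in the order Gzma, Itgae, Cd3e, Cd8a and Gzmb and the SDs of neighbors in this order overlapped. The pseudogene Btnl5-ps, which lies between Btnl4 and Btnl6, was above them all at 91.1 ± 5.02 CPM per kb. Btnl4, Btnl6 and Btnl5-ps share 10.05%, 6.58% and 9.28% of the 50-base windows of their transcripts with one another or with Btnl7-ps, so the split of reads among them is uncertain. Itgae overlaps Gsg2 on the opposite strand (mean of 167 counts), and the strand setting of the counting is not given in the sources used here.

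Btnl1 transcripts averaged 154.5 CPM in formerly obese mice and 125.8 CPM in obese mice. In control mice, Btnl1 was at 109, 106, 114, 139 and 122 CPM (replicates 1 to 5). In obese mice it was at 115, 118, 145.2, 127 and 125 CPM, and in formerly obese mice at 169.9, 151, 154, 152 and 144.8 CPM. Every formerly obese mouse was above every control mouse, and 1 of them, HFLF5, was just below the highest obese mouse, HF3. Between formerly obese and control mice, 3.62% of all tested genes had groups that did not overlap. The log2 fold change from obese to formerly obese mice was 0.30 (SE 0.07, edgeR quasi-likelihood adjusted p = 0.0828), which passed the call rule of the study (a fold over 1.2, p under 0.01 and adjusted p under 0.25). Without HFLF1, the fold fell below this rule (log2 0.26, edgeR adjusted p = 0.121). From control to obese mice the log2 fold change was 0.10 (SE 0.07, edgeR adjusted p = 0.689), with a 95% interval from -0.05 to 0.24. From control to formerly obese mice it was 0.39 (SE 0.07).

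Btnl6, which pairs with Btnl1, showed the same order of group means. Its level was 90.8, 82.9, 94.7, 103 and 80.6 CPM in control mice. It was 99.4, 97.7, 109.8, 104 and 100.4 CPM in obese mice, and 117, 112, 122, 137 and 123 CPM in formerly obese mice. The 5 formerly obese mice were all above the 5 obese and the 5 control mice, while obese and control mice overlapped. The difference between formerly obese and obese mice was 0.26 on the log2 scale (SE 0.06, edgeR adjusted p = 0.0876). It met the p-value parts of the call rule, but its size was just under the log2 cutoff of 0.263, and it passed without HF3, HFLF1 or HFLF2. From control to obese mice Btnl6 differed by log2 0.18 (SE 0.07, edgeR adjusted p = 0.326), with an interval from 0.05 to 0.31, and from control to formerly obese mice by log2 0.44 (SE 0.07).

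Btnl4, a further family member from the same minus-strand stretch, varied least. It was at 65, 63.7, 65.9, 67.9 and 68.9 CPM in control mice and, in obese mice, at 74.5, 66.5, 69.3, 63.5 and 66.3 CPM. In formerly obese mice it was at 78.5, 66.5, 76, 79.3 and 76.8 CPM. Apart from HFLF2, the formerly obese mice were above all other mice. The log2 difference was 0.15 from obese to formerly obese mice (SE 0.05, edgeR adjusted p = 0.218) and 0.04 from control to obese mice (SE 0.05, edgeR adjusted p = 0.857), neither of which was called. From control to formerly obese mice it was 0.19 (SE 0.05), under the fold cutoff.

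Btnl2, a family member that restrains T cell activation in culture, was the rarest Btnl gene and the most variable. It was at 4.61, 3.93, 7, 7.26 and 6.37 CPM in control mice and, in obese mice, at 8.11, 6.41, 13.6, 6.61 and 10.02 CPM. In formerly obese mice it was at 12.98, 10.02, 9.43, 14.1 and 6.84 CPM. All 3 groups overlapped. The log2 fold change from control to obese mice was 0.62 (SE 0.24, edgeR adjusted p = 0.338), with an interval from 0.16 to 1.08, and it was called without HF2 (log2 0.72, edgeR adjusted p = 0.228) or when DESeq2 was used (adjusted p = 0.237). From obese to formerly obese mice it was 0.25 (SE 0.22, edgeR adjusted p = 0.683), and from control to formerly obese mice 0.87 (SE 0.23).

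**Figure D1:**
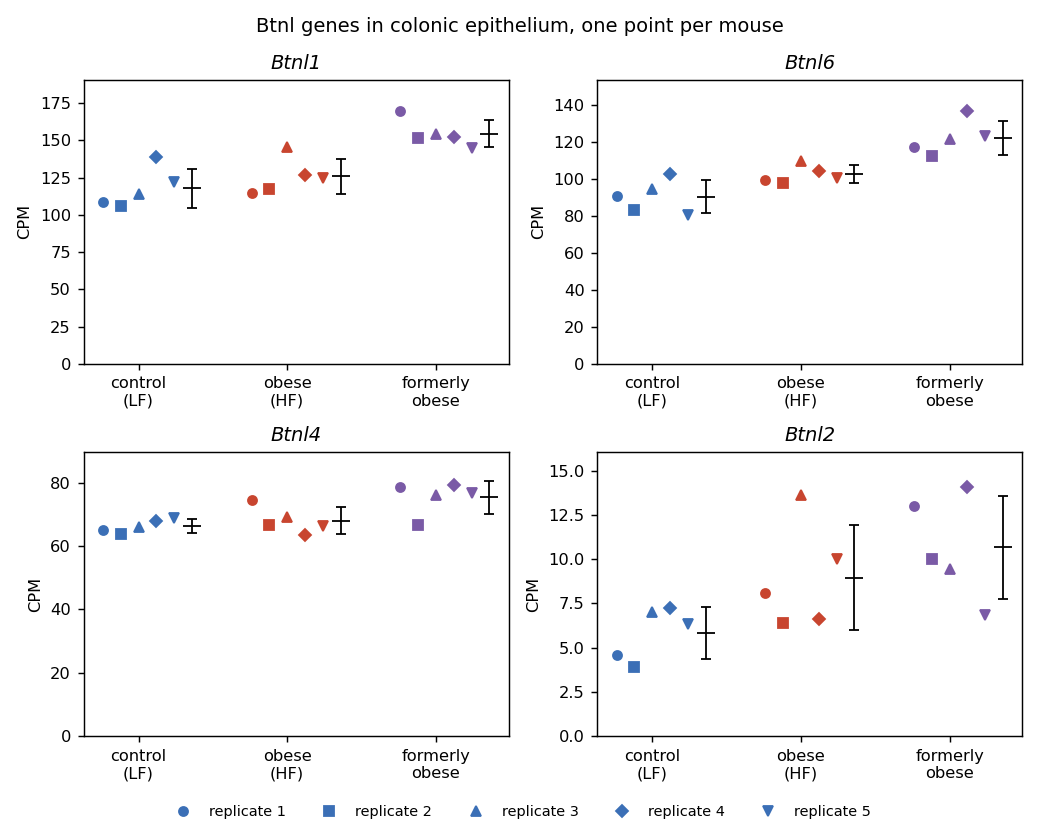
Level of Btnl1, Btnl6, Btnl4 and Btnl2 in CPM (vertical axes, from 0) in each of the 5 control, 5 obese and 5 formerly obese mice; marker shapes give the replicate number and black bars the mean ± SD. The formerly obese mice lie above all control mice for Btnl1 and above all control and obese mice for Btnl6, whereas the groups overlap for Btnl2 and Btnl4. Of all tested genes, 3.62% did not overlap between formerly obese and control mice and 3.38% between formerly obese and obese mice.

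Between formerly obese and obese mice, 1 of the 10 genes was called, Btnl1, where 2.65% of 12961 tested genes were called (1.23% higher and 1.42% lower). The same comparison had 3 of 4 Btnl genes and none of the 6 lymphocyte genes at an unadjusted p under 0.05, beside 13.4% of all tested genes. Formerly obese and obese mice did not overlap for Btnl6, against 3.38% of all tested genes. Formerly obese and control mice did not overlap for Btnl1 and Btnl6, against 3.62% of all tested genes. Between obese and control mice, 0 of the 10 were called with edgeR, where 1.58% of tested genes were called (0.718% higher and 0.864% lower). In the same comparison, 2 (Btnl2 and Btnl6) had an unadjusted p under 0.05, beside 10.9% of tested genes. DESeq2 called 1 of the 10 there (Btnl2), beside 268 of the 13150 genes that it tested. Between formerly obese and control mice, the comparison with which the genes were listed, 3 of 10 were called (Btnl1, Btnl2 and Btnl6), where 3.72% of tested genes were called (1.85% higher and 1.87% lower). Each group of libraries entered 2 of these 3 comparisons. The counts between formerly obese and obese mice thus rest in part on the libraries with which the genes were listed.

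The lymphocyte genes varied among mice of every diet, and none was called by edgeR or DESeq2 in any comparison or had an unadjusted p under 0.05 between obese and the other groups. Cd3e, an invariant chain of the T cell receptor complex, was at 2.74, 1.7, 2.11, 1.35 and 1.41 CPM in control mice and, in obese mice, at 2.26, 1.1, 1.53, 1.99 and 4.86 CPM. In formerly obese mice it was at 2.33, 4.26, 1.16, 4.33 and 1.53 CPM. The 3 groups overlapped over most of their range, and HF5, HFLF4 and HFLF2 stood highest. The log2 fold change of Cd3e was 0.33 from control to obese mice (SE 0.41, edgeR adjusted p = 0.825) and 0.19 from obese to formerly obese mice (SE 0.39, edgeR adjusted p = 0.883).

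Cd3g, another CD3 chain, ranged from 1.35 to 4.11 CPM in control, 2.26 to 6.3 CPM in obese and 1.81 to 5.45 CPM in formerly obese mice. Cd8a, the alpha chain of CD8, ranged from 1.54 to 3.74, 2.5 to 6.78 and 1.51 to 5.97 CPM in the same order of groups. Itgae, the alpha E integrin, ranged from 3.81 to 7.6, 4.28 to 10.7 and 3.34 to 11.2 CPM. For these 3 genes the obese mice were at most log2 0.50 above control mice (Cd8a, SE 0.37, edgeR adjusted p = 0.666), and formerly obese and obese mice differed by -0.04 to -0.02 on the log2 scale. The interval of Cd8a between formerly obese and obese mice, -0.74 to 0.66, shows the size of difference that these data leave possible. Cd8b1, the beta chain of CD8, had 0 to 8 counts per library and Cd4 had 0 to 7, so neither was tested.

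Gzma, a serine protease of cytotoxic granules, spread most widely. It was at 6.16, 0.916, 0.991, 0.123 and 0.386 CPM in control mice, from 99 counts in LF1 to 2 counts in LF4. It was at 1.01, 1.16, 1.59, 0.561 and 3.54 CPM in obese mice, and at 0.932, 1.94, 0.578, 1.75 and 0.735 CPM in formerly obese mice. The control group thus held both the highest and the lowest mouse. The log2 difference between obese and control mice was -0.12 (SE 0.69, edgeR adjusted p = 0.974), and without LF1 it was 1.38 (edgeR adjusted p = 0.447). Gzmb, the other granzyme, ranged from 0.123 to 2.93 CPM in control, 0.44 to 1.12 CPM in obese and 0.356 to 1.04 CPM in formerly obese mice. Its log2 difference between obese and control mice turned from -0.27 (SE 0.52, edgeR adjusted p = 0.903) to 0.55 without LF1 (edgeR adjusted p = 0.725).

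**Figure D2:**
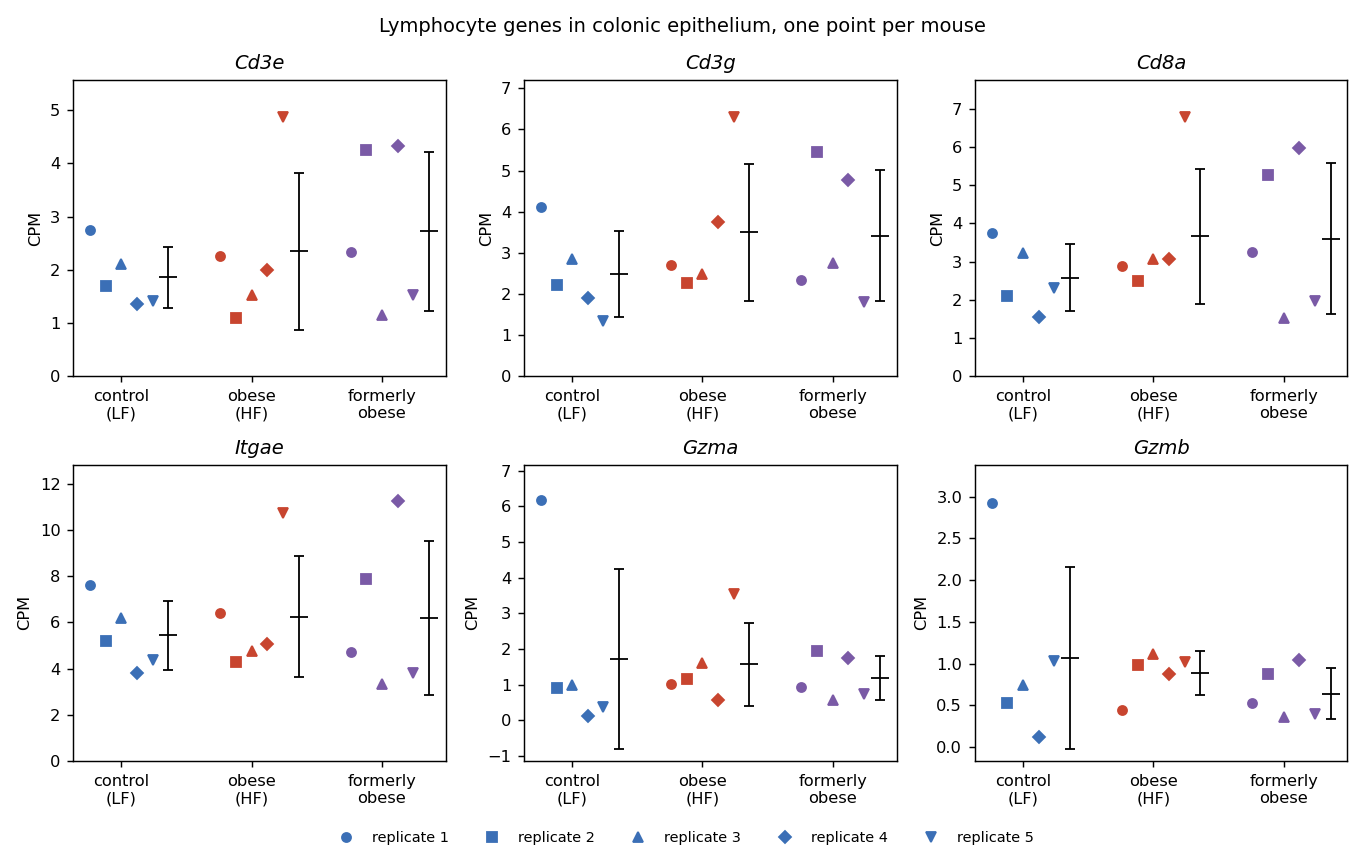
Level of the 6 lymphocyte genes in CPM (vertical axes) in each mouse, grouped by diet; marker shapes give the replicate number and black bars the mean ± SD. The groups overlap for every gene, and LF1 (6.16 CPM) lies far above the other control mice for Gzma.

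The spread behind these values differed between both sets of genes. The biological coefficient of variation from the edgeR fit was 8.36% for Btnl1, 7.37% for Btnl6, 5.99% for Btnl4 and 24.3% for Btnl2. It was 34% to 41.5% for Itgae, Cd3g, Cd8a and Cd3e, 51.6% for Gzmb and 74.3% for Gzma. Counting alone gave 2.11% for Btnl1 and 26.4% for Gzmb, at means of 2254 and 14.3 counts. A difference of the size seen in Btnl1 was therefore within the spread of each lymphocyte gene.

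**Figure D3:**
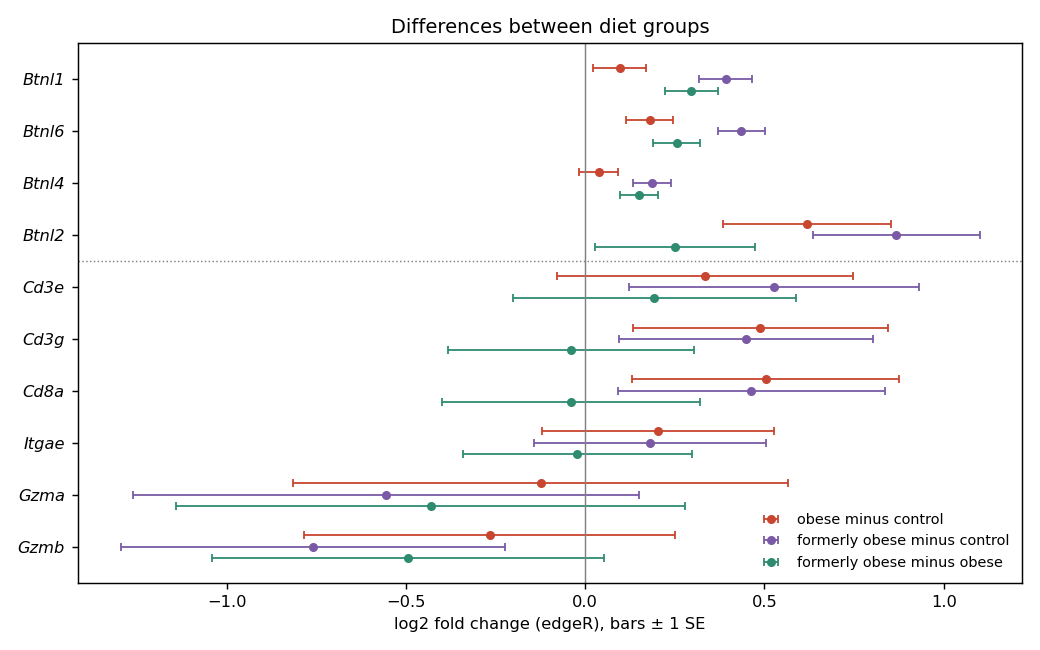
Fitted log2 fold changes of the 10 genes (horizontal axis) in the 3 comparisons of diet groups, with bars of 1 SE; the dotted line parts Btnl genes from lymphocyte genes. The 4 Btnl genes lie to the right of 0 in each comparison, and the bars of each lymphocyte gene are wider than those of any Btnl gene.

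The same mice were high in most lymphocyte genes. LF1, HF5, HFLF2 and HFLF4 were the 4 highest mice for 5 of the 6 lymphocyte genes, all except Gzmb, and for 0 of the 4 Btnl genes. Within a mouse, the ratio to Cd3e counts ranged from 1.85 to 3.89 for Itgae, from 1.14 to 2.28 for Cd8a and from 0.955 to 2.39 for Cd3g. The ratio of Gzma to Cd3e ranged from 0.0909 to 2.25 and that of Gzmb from 0.0909 to 1.07. Cd3g, Cd8a and Itgae thus kept narrower ratios to Cd3e than the granzymes did. The granzymes also had fewer counts, with means of 24.8 (Gzma) and 14.3 (Gzmb) against 52.9 (Cd3g) to 99.9 (Itgae). How much counting error widened their ratios was not tested.

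Correlations over the 15 mice were computed after removing the mean of each diet group and tested by shuffling mice within groups, with the p-values of all 45 pairs adjusted together. Of the 15 pairs of lymphocyte genes, 13 passed an adjusted p of 0.05. Cd3e and Itgae were closest (Pearson r = 0.959, Spearman rho = 0.961, permutation adjusted p = 0.00045, n = 15), followed by Cd8a and Itgae (r = 0.948, rho = 0.882, permutation adjusted p = 0.00045). Gzma and Gzmb had r = 0.818 (rho = 0.675, permutation adjusted p = 0.028). Cd3e with Gzmb (r = 0.469) and Cd3g with Gzmb (r = 0.499) did not pass. Without the 2 mice farthest from the median of the first gene, r of the 15 pairs ranged from 0.324 to 0.941. When HF5, HFLF2 and HFLF4, the 3 mice highest in Cd3e, were left out, 3 of the 15 pairs passed and r ranged from 0.39 to 0.927.

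Most pairs of Btnl genes had lower r, over a smaller spread between mice. Their biological coefficient of variation was 5.99% to 24.3%, against 34% to 74.3% for the lymphocyte genes. The part of this difference in spread in the lower r was not tested. Btnl1 and Btnl2 were correlated (r = 0.725, rho = 0.661, permutation adjusted p = 0.0171, n = 15), and the other 5 Btnl pairs had r between 0.182 and 0.458 and did not pass. Without HF3 the Btnl1 and Btnl2 pair did not pass either. Of the 24 pairs of a Btnl gene with a lymphocyte gene, 0 passed in the permutation test, 0 had an unadjusted p under 0.05 and 0 passed by Spearman correlation. Their r ranged from -0.495 (Btnl4 with Cd3g) to 0.339 (Btnl2 with Cd8a), with a median of -0.153.

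**Figure D4:**
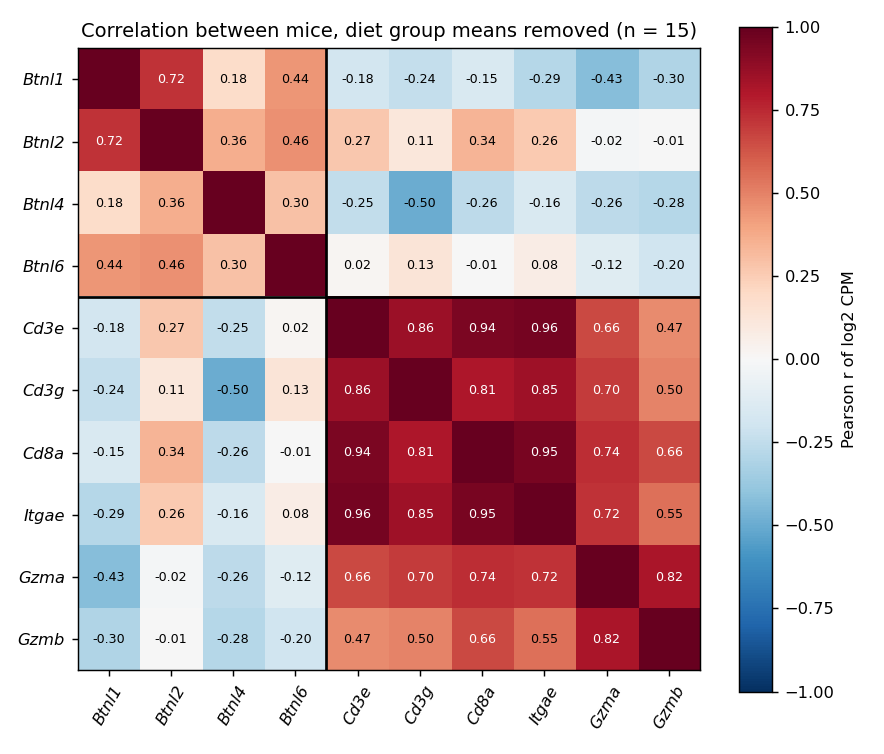
Pearson r of log2 CPM between each pair of the 10 genes over 15 mice after removal of diet group means, with the color scale from -1 to 1 and black lines between Btnl genes and lymphocyte genes. The lymphocyte block holds values from 0.47 to 0.96, and the block between both sets holds values from -0.50 to 0.34.

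The summed levels placed each mouse on both scales at once. The 4 Btnl genes together reached 256 to 317 CPM in the control group, 288 to 338 CPM in the obese and 339.9 to 382 CPM in the formerly obese group. The 6 lymphocyte genes together reached 8.86 to 27.3, 12.3 to 33.3 and 9.7 to 29.1 CPM. HFLF4 was high on both scales, LF1 and HF5 were high in lymphocyte genes alone, and HFLF3 was high in Btnl genes with 9.7 CPM of lymphocyte genes.

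**Figure D5:**
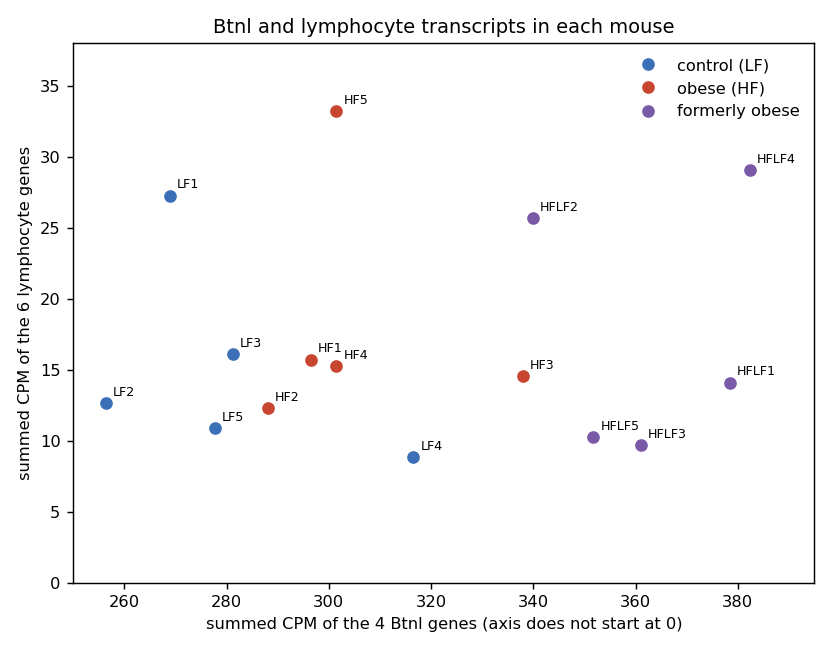
Summed CPM of the 4 Btnl genes (horizontal axis, not from 0) against summed CPM of the 6 lymphocyte genes (vertical axis, from 0), with 1 labeled point per mouse colored by diet. The formerly obese mice lie to the right at 339.9 to 382 CPM, while all 3 diets span most of the vertical range.

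The genes whose levels ran most like those of each set were ranked by group-centered Pearson r over the 15 mice among 11026 genes, as a description. Closest to Cd3e were Il2rb (r = 0.955), a receptor chain for interleukin 15, Cd7 (0.944), Gimap4 (0.94), Pik3cd (0.93) and Ptprc (0.925), the pan-leukocyte antigen CD45. Closest to Btnl6 were Snrpd1 (0.845), Vil1 (0.844), which encodes the brush border protein villin, Cct8 (0.841), Stk10 (0.839) and Ankib1 (0.825). These values were lower than those for Cd3e. How high the top r of 11026 unrelated genes would be with 15 mice was not tested, so neither list shows a link between genes.

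The wider set of T cell genes was low and variable as well. Of 9 tested genes for T cell receptor chains and signaling, 0 were called in edgeR between obese and control or formerly obese and obese mice, 0 had an unadjusted p under 0.05 and 0 were called by DESeq2. The most abundant was Lck, the T cell kinase, at 6.09 ± 1.57, 6.73 ± 2.36 and 7.18 ± 1.85 CPM (SD, n = 5) in control, obese and formerly obese mice. Of 8 tested cytotoxic effector genes, 0 were called by edgeR or DESeq2 in those comparisons and 0 had an unadjusted p under 0.05. All 8 had a positive log2 fold change from control to obese mice, with a median of 0.47 beside 0.00 over all tested genes, and Ctsw, a protease of cytotoxic cells, went from 3.55 ± 1.58 to 5.04 ± 2.72 CPM. From control to formerly obese mice all 8 were positive as well, with a median of 0.45. The 9 T cell receptor and signaling genes were also all positive in both comparisons with control mice, with medians of 0.27 (obese) and 0.29 (formerly obese). The granzymes Gzma and Gzmb, which are not in these lists, were negative in both. Their log2 fold changes were -0.12 and -0.27 (obese) and -0.56 and -0.76 (formerly obese). All genes of a list were measured in the same mice, so a shared sign is not a set of separate results. The cytotoxic effector list summed to 44.2 CPM in HF5 and to 16.9 to 18.9 CPM in the other 4 obese mice, beside 11.3 to 25 CPM in control mice. The 5 pan-leukocyte genes had a median log2 fold change of 0.53 from control to obese mice and 0.34 from control to formerly obese mice.

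Among 16 tested adhesion and homing genes, Itga1, a collagen-binding integrin chain, fell from obese to formerly obese mice (log2 -0.28, edgeR adjusted p = 0.137). Its level was 18.6 ± 1.89, 21 ± 2 and 17.3 ± 1.38 CPM in control, obese and formerly obese mice. Cdh1, which encodes the E-cadherin that the Itgae integrin binds, was at 1993 ± 99.9, 1931 ± 71.4 and 2007 ± 89.3 CPM in control, obese and formerly obese mice. Among 14 cytokine and regulator genes, Runx3, a transcription factor of CD8 T cells, rose under the high-fat diet, with 0.733 ± 0.19 CPM in controls and 1.53 ± 0.563 CPM on high fat (log2 1.06, edgeR adjusted p = 0.195). Il15, a survival cytokine of intraepithelial lymphocytes, averaged 16.8 ± 1.18 CPM in the obese group and 20.7 ± 3.03 CPM in the formerly obese group (log2 0.29, edgeR adjusted p = 0.213), which DESeq2 called and edgeR did not. The control group averaged 19.4 ± 2.51 CPM. H2-T3, which encodes the epithelial ligand of CD8 alpha-alpha, had means of 64, 77.7 and 89.1 CPM in control, obese and formerly obese mice, and was called between formerly obese and control mice. It belongs to a multigene family, so its reads may be split with near relatives. Il18, an epithelial cytokine, had means of 142, 120 and 109 CPM and was called lower between those groups.

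Of the other butyrophilin genes, 6 were in the table and 2 passed the filter. Btn1a1 was higher in HFLF mice, at 5.81 ± 2.58 CPM against 3.49 ± 0.607 CPM in HF mice (log2 0.74, edgeR adjusted p = 0.192). Control mice lay between them at 4.54 ± 1.11 CPM, and the gene was not called against control mice in either group. Btnl5-ps was at 236 ± 13, 250.3 ± 2.94 and 264 ± 15.4 CPM in control, obese and formerly obese mice and was not called (formerly obese against obese log2 0.08, edgeR adjusted p = 0.505).

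Other features of the epithelium also differed between the groups, and their part in the Btnl differences was not tested. The 14 genes more typical of the small intestine summed to 1106 to 1446 CPM in control, 1315 to 1635 CPM in obese and 1512 to 1762 CPM in formerly obese mice. Of the 10 tested, edgeR called 4 higher in formerly obese than in control mice (Sis, Fabp2, Apob and Alpi) and 3 higher in obese than in control mice (Fabp6, Apob and Alpi). Between formerly obese and obese mice, 0 were called in edgeR (3 at an unadjusted p under 0.05, and 1 by DESeq2). The median log2 fold change of these 10 was 0.30 (obese against control), 0.51 (formerly obese against control) and -0.02 (formerly obese against obese). In the same order of comparisons, the medians of the 4 Btnl genes were 0.14, 0.41 and 0.25. Krt20, a keratin of mature surface cells, had means of 817, 936 and 1196 CPM in control, obese and formerly obese mice. It was called between formerly obese and control mice (log2 0.55). Fibroblast genes summed to 2.34 to 10.9, 6.78 to 17.4 and 6.01 to 30.65 CPM, with the highest sum in HFLF3. Of these, 4 were tested, with 0 called by edgeR or DESeq2 in any comparison (2 at an unadjusted p under 0.05 between formerly obese and control mice) and a median log2 fold change of 1.09 between those groups. Posterior Hox genes summed to 484 to 606, 424 to 549.5 and 351 to 455 CPM in control, obese and formerly obese mice, and 7 of 9 tested were called lower in formerly obese than in control mice. Hnf4g, of the HNF4 pair whose motif was searched above, was at 72.1 ± 3.91, 74.1 ± 5.4 and 86.6 ± 11.3 CPM, and Hnf4a was at 1231, 1210 and 1271 CPM.

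The lymphocyte genes moved with pan-leukocyte markers. The 4 mice with the highest lymphocyte levels had pan-leukocyte sums of 30.2 (LF1), 55.1 (HF5), 42.2 (HFLF2) and 47.3 CPM (HFLF4). HF4 had a pan-leukocyte sum of 32 CPM, above that of LF1, with 15.3 CPM of lymphocyte genes, and the other 10 mice had 18.6 to 28.6 CPM. The part of other leukocytes in the lymphocyte values was not tested.

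DNA methylation was compared between obese and control mice as a list of 8199 differentially methylated regions (DMRs) deposited by the authors, without values per mouse. Within 100 kb of the gene bodies, 4 of the 10 genes had a DMR (40%), beside 58.1% of 24059 genes. The nearest to Btnl6 gained methylation in obese mice and lay 92.1 kb away, and that of Gzma also gained methylation and lay 47.9 kb away. Those of Cd8a and Gzmb lost methylation, at 96.5 and 73.8 kb. Within 10 kb, 0 of the 10 genes had a DMR, beside 19.4% of all genes. The regions of Btnl6 and Gzma are shown on the plus strand of GRCm38 with their CpG sites in capitals, since these are the sites a methylation difference rests on.
DMR toward Btnl6, chr17:34609452-34609484: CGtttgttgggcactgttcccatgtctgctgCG
DMR toward Gzma, chr13:113045925-113045960: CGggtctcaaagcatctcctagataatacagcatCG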

How the data were processed

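Colonic epithelium was measured by RNA-seq in 15 mice. Paired 50-base reads from stranded mRNA libraries were aligned by the authors to the mm10 genome using TopHat2, and the deposited values are raw read counts per gene from HTSeq-count, 1 column per mouse. The annotation release and strand setting are not given in the sources used here. The authors also deposited tables of their DESeq2 comparisons with fold changes and p-values, which were not used, and a list of DMRs of obese against control mice, used for positions and directions only. Bisulfite amplicon values were not used, since no amplicon lay within 500 kb of the 10 genes.

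Groups were taken from the sample labels. Counts were filtered with filterByExpr, scaled by TMM and fitted with the edgeR quasi-likelihood model (edgeR 4.0.16, R 4.3.3) over all 15 libraries with diet as the only term, and p-values were two-sided and adjusted by Benjamini-Hochberg over 12961 genes. A gene was called at a fold over 1.2, p under 0.01 and adjusted p under 0.25, the cutoffs of the study. Log2 CPM used a prior count of 2. Exon lengths came from RefSeq. Correlations used 100000 shuffles. Depth was 15230391 to 22762095 counts, and counting error sets a floor on the precision of genes with few counts, such as Gzmb. Tested on simulated data for obese against control mice over 12789 genes, the fit called 85 of 100 genes changed by log2 0.5 and 99 of 100 changed by log2 1, with 52 false calls among 236. The simulation gave every gene the same spread. That spread was smaller than the one estimated for Btnl2 (24.3%) and for each lymphocyte gene (34% to 74.3%), so these rates do not hold for those genes.

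The members, gene lists and tests were chosen with earlier results of these data known. All 10 members are named. Of the related lists, called genes and up to 3 of the most abundant others could be named, and for likeness the 5 genes with the highest r and a mean of at least 50 counts. Il15 was named for its DESeq2 call, after its values were seen. Alternatives were RLE and upper-quartile scaling, 2 other count filters, a fit of the compared groups only, a block on replicate number, libraries thinned to 15230391 counts, DESeq2 1.42.0, an adjusted p of 0.05 without a fold cutoff, leaving out each library, Spearman and uncentered correlations and other DMR distances. Removal of a GC trend and leaving out the 3 mice highest in Cd3e were chosen after seeing the data. The result of 1 further marker list is not reported here.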

Additional observations from a re-analysis of the deposited data

Results flagged for a closer look

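Among the 30 sets of 5 mice (10 genes in 3 diets), 3 held a mouse whose gap to the nearest other mouse took up an unusually large part of the range of its group (over 0.71). Chance flags about 1 in 20 such sets. Btnl4 was lowest in HFLF2, at a log2 CPM of 6.06 against 6.25 in the next formerly obese mouse. Cd8a was highest in HF5, at a log2 CPM of 2.79 against 1.67. Gzmb was lowest in HF1, at a log2 CPM of -0.84 against -0.01.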

How the results depend on the processing

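Of 1035 pairs of a result and an alternative, 973 kept their side of the threshold or stayed within the limits set for a change. Fold changes turned in sign in 6, 3 and 16 of these pairs between obese and control, formerly obese and control, and formerly obese and obese mice, all among lymphocyte genes. With an adjusted p of 0.05 and no fold cutoff, 16, 282 and 25 genes were called between obese and control, formerly obese and control, and formerly obese and obese mice, in place of 205, 482 and 343, and 0 members were called between formerly obese and obese mice. DESeq2 called 1 member between obese and control mice, beside 268 of the 13150 genes that it tested. Whether the replicate numbers pair mice across diets was not settled, since correlations between libraries cannot exclude it. Correlations of same-numbered libraries ranged from -0.231 to 0.333 over 15 pairs, with a median of -0.056 beside 0.019 for other pairs. Of 15 libraries, 6 correlated best with their own number. With the replicate number as a block, 252, 537 and 346 genes were called and Gzma turned to 0.22 between obese and control mice, with no change in the number of members called. In libraries thinned to equal depth, Cd3g and Cd8a turned to 0.088 and 0.0039 between formerly obese and obese mice.

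Without each library in turn, called genes ranged from 40 to 331 (obese and control), 362 to 660 (formerly obese and control) and 167 to 400 (formerly obese and obese), with 40 of them without HF3, 44 without LF2, 54 without HF5 and 331 without HF2. Members called ranged from 0 to 1, 3 to 3 and 1 to 2. Between obese and control mice, log2 fold changes ranged from -0.12 to 0.52 for Cd3e, -0.66 to 1.38 for Gzma, -0.56 to 0.55 for Gzmb and -0.084 to 0.35 for Itgae. Between formerly obese and obese mice they ranged from -0.049 to 0.64 for Cd3e, -0.26 to 0.29 for Cd3g, -0.31 to 0.31 for Cd8a, -0.67 to 0.11 for Gzma and -0.36 to 0.27 for Itgae. The cause of these turns was not tested. Between formerly obese and control mice, Gzma and Gzmb turned from -0.56 and -0.76 to 0.95 and 0.06 without LF1, and Itgae from 0.18 to -0.15 without HFLF4.

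Among Btnl pairs, 6 of 6 correlations passed when values were not centered on the diet group, 0 by Spearman correlation and 0 to 1 without each library. Among lymphocyte pairs, 8 passed by Spearman correlation, 3 without HF5, HFLF2 and HFLF4, and 10 to 14 without each library. Genes with a DMR numbered 0 within 10 kb, 1 within 50 kb (beside 41% of all genes) and 10 within 500 kb (beside 94.1%).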
